A study of Mus musculus with 7 samples.

Results

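The axon guidance ligands and receptors described here are 68 genes of the 31053 in the deposited tables. They were chosen by symbol alone, as every numbered Sema, Plxna, Plxnb, Plxnc, Plxnd, Epha, Ephb, Efna, Efnb, Slit, Robo and Ntn gene together with Nrp1, Nrp2, Unc5a to Unc5d and Dcc. They fall into 9 families: 20 semaphorins, 9 plexins, 2 neuropilins, 14 Eph receptors, 8 ephrins, 3 Slits, 4 Robos, 3 netrins, and 5 netrin receptors of the Dcc and Unc5 kinds. A further 17 symbols that resemble them, such as the netrin-G genes, lie outside this choice.

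RNA was counted in single cells of mouse brain in 7 libraries, without any treatment. Tissue was dissected at postnatal day (P) 2, 7, 15 and 60. The cortex libraries (P2, P7, P15 and P60) took the tissue dorsal to the lateral ventricles, ventricular-subventricular zone, white matter and grey matter included. The P60 grey matter library took tissue above the cortical white matter. The P60 white matter library took corpus callosum and the ventricular zone over the ventricles. The P7 SVZ library took the dorsal and lateral ventricular-subventricular zone. Mice were CD1, except for P7 SVZ, which came from C57BL/6 mice, so that strain and region cannot be told apart there. P2, P7 and P15 made up the early group (4 libraries) and P60 the adult group (3 libraries). No label says that libraries came from separate animals or how many animals each pooled, so p-values measure the spread between these libraries.

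Guidance systems pair secreted or membrane-bound ligands with receptors that steer growing axons and migrating cells. Semaphorins act through plexins, and most secreted class 3 semaphorins bind them together with a neuropilin. Ephrins bind Eph receptor tyrosine kinases between touching cells, Slits repel through Robo receptors, and netrins attract through Dcc or repel through Unc5 receptors. The same molecules are known in glia and vessels, where they act on the spread of oligodendrocyte precursors, on migrating neuroblasts and on endothelial sprouting.

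The libraries held 10074763 to 45668007 unique molecular identifiers (UMIs, counted RNA molecules), and 20697 cells were kept with a median of 2791 to 9530.5 UMIs. Library pairs shared 0 to 23 kept barcodes. In P7 SVZ, 39.8% of barcodes exceeded the limit on mitochondrial RNA, against 4.31 to 21.4% elsewhere. Cells were clustered without the 68 genes and named from other markers. Guidance genes did take places among the 10 leading genes, which the naming rule reads, in 3 named clusters: Sema3c and Unc5d in the excitatory intermediate precursor-like cluster 9, and Sema4d and Plxnb3 in the COP-like clusters 32 and 34. Levels are in CPM, the UMIs of a gene scaled by all UMIs of its class in that library to a common total, given where at least 20 cells were present. The assay counts 1 molecule as 1 UMI whatever the transcript's length, which lets genes be set side by side. Free RNA in droplets can give UMIs in cells that do not express a gene, so low levels are not read as expression.

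Of the 68 genes, 65 reached a mean of 10 CPM in at least 1 of 15 cell classes, and 0 reached it in every class. Excitatory neuron-like cells held the most, with 47 genes at that level. Excitatory intermediate precursor-like cells held 38, cortical interneuron-like cells 37, striatal neuron-like cells 36 and oligodendrocyte precursor cell (OPC)-like cells 35. Microglia-like cells held 9, the fewest of the 15 classes. The share of all genes at that level was not taken for any class, so these counts have no background. Depth differed too: 3 counts made 12.7 to 23.4 CPM in the endothelial-like and mural-like sums. Epha1, Epha6 and the netrin Ntn5 stayed under 10 CPM in all 15 classes. Their highest means were 1.41 CPM in mural-like cells, 3.63 CPM in interneuron-like cells and 6.42 CPM in excitatory neuron-like cells respectively. Only Sema3g, Robo4, Robo3 and Sema3b reached 10 CPM in a single class.

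**Figure D1:**
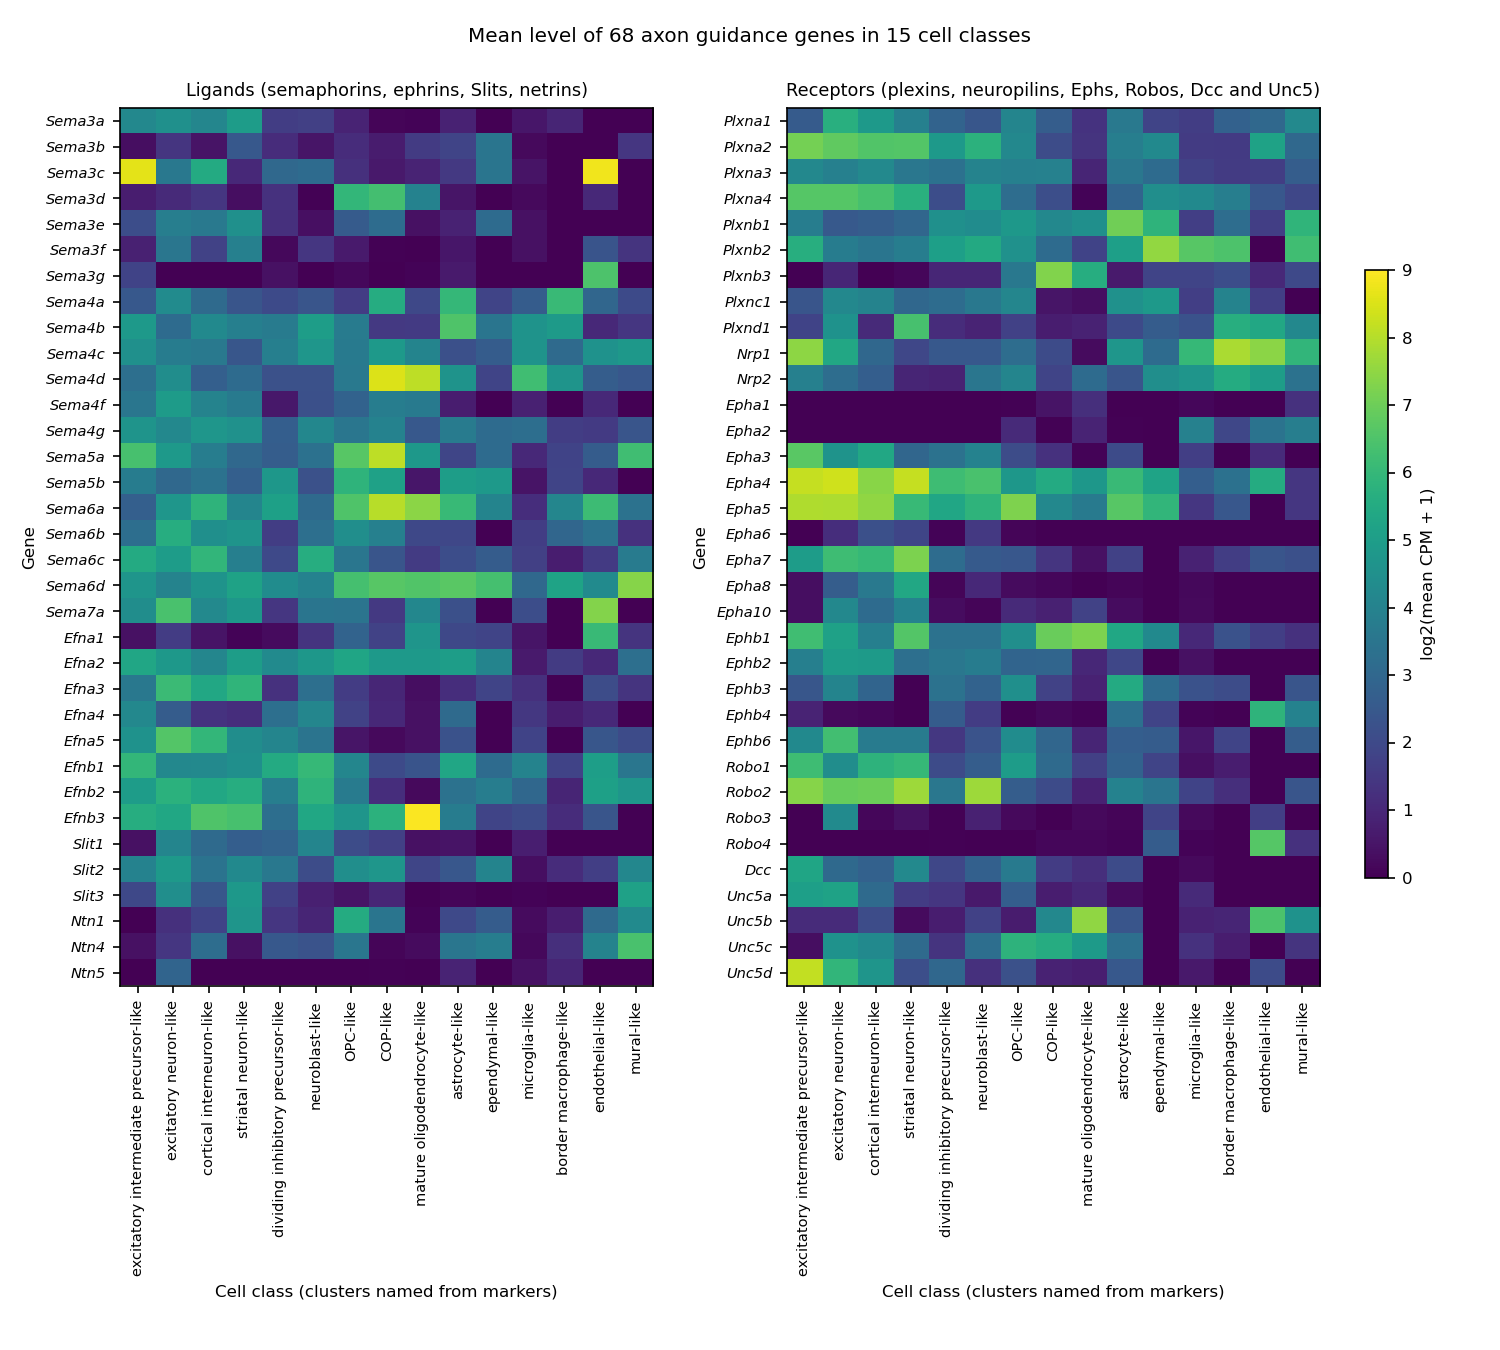
Mean level of each of the 68 genes (rows, grouped by family) in each of 15 cell classes (columns), as CPM averaged over the libraries with at least 20 cells of the class, on a log colour scale. The excitatory neuron-like column holds 47 genes at 10 CPM or more and the microglia-like column 9.

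Among the secreted semaphorins, Sema3c was the most abundant and had separate high points in vessels and in young neurons. In endothelial-like cells it stood at 280 CPM at P15 and at 700, 426 and 403 CPM in cortex, grey and white matter at P60. In excitatory intermediate precursor-like cells it stood at 348 CPM in P2 cortex, 416 in P7 cortex and 434 in P7 SVZ. In excitatory neuron-like cells it was 7.99 to 17.4 CPM over 4 libraries, well apart from both. Sema3g was highest in endothelial-like cells, at 78.8 to 102 CPM over 4 libraries against a next highest class mean of 2.50 CPM. In an unnamed cluster with all 10 endothelial markers it was 3.26 CPM (3 UMIs) in P7 cortex. There it was 0 in P15 cortex, which allows up to 9.28 CPM (3 counts). Sema3d belonged to the oligodendrocyte lineage, with means of 77.8 CPM in committed precursor (COP)-like and 61.7 CPM in OPC-like cells. Striatal neuron-like cells held the highest means of Sema3a (30.1 CPM), Sema3e (22.0 CPM) and Sema3f (14.3 CPM). Sema3b reached 10.3 CPM in the single ependymal-like sum of 35 cells, where 3 counts made 7.76 CPM.

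Of the membrane-bound semaphorins, those of the oligodendrocyte lineage were the most abundant. Sema4d, a ligand of B-type plexins, averaged 369 CPM in COP-like cells and 277 CPM in mature oligodendrocyte-like cells, and led the family in microglia-like cells at 74.5 CPM. Sema5a (272 CPM), Sema6a (260 CPM) and Sema4c (27.4 CPM) also had their highest means in COP-like cells, and Sema5b had its own in OPC-like cells at 57 CPM. Sema4b was highest in astrocyte-like cells at 91.5 CPM, and Sema4a in border macrophage-like cells at 68.3 CPM with 62.0 CPM in astrocyte-like cells. Sema6d was the most widely spread of the family, at 10 CPM or more in 14 of 15 classes, with 163 CPM in mural-like and 103 CPM in astrocyte-like cells. The mural-like mean rested on 451 CPM (80 UMIs) in the 20 cells of P7 SVZ. Mural-like cells of P15 cortex, P60 cortex and P60 white matter stood at 46.8, 60.1 and 92.1 CPM, and the median was 76.1 CPM. Sema7a, which is anchored to the membrane by a lipid and binds Plxnc1, was highest in endothelial-like cells at 158 CPM and in excitatory neuron-like cells stood at 84.8 CPM. Neurons held the highest means of Sema6c (60.3 CPM) and Sema4g (25.2 CPM), both in interneuron-like cells, and of Sema6b (47.6 CPM) and Sema4f (29.7 CPM), both in excitatory neuron-like cells.

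The receptors of semaphorins divided the classes in another way. A-type plexins had their highest means in neuronal classes. Plxna2 led the plexins in 5 neuronal classes, from 53.7 CPM in neuroblast-like to 138 CPM in excitatory intermediate precursor-like cells. Plxna4 (99.0 CPM) and Plxna1 (50.7 CPM) were highest in excitatory neuron-like cells, and Plxna3 in interneuron-like cells (18 CPM). In the glial classes B-type plexins led: Plxnb3 in COP-like (156 CPM) and mature oligodendrocyte-like cells (47.2 CPM), Plxnb1 in astrocyte-like (132 CPM) and OPC-like cells (26.5 CPM), and Plxnb2 in ependymal-like (184 CPM) and microglia-like cells (101 CPM). Plxnb2 was at 0 in all 4 endothelial-like sums, which allows up to 12.7 to 22.8 CPM (3 counts per sum). Plxnd1, the receptor of Sema3e, was highest among the named classes in striatal neuron-like cells at 81.4 CPM and was the leading plexin of endothelial-like cells at 41.0 CPM. Plxnc1 was highest in ependymal-like (28.5 CPM) and astrocyte-like cells (22.6 CPM). Nrp1, a co-receptor for class 3 semaphorins and for vascular endothelial growth factor, stood at 258, 272 and 168 CPM in border macrophage-like cells of P7 cortex, P15 cortex and P60 grey matter. Its mean was 172 CPM in endothelial-like and 176 CPM in excitatory intermediate precursor-like cells. Nrp2 led the pair in OPC-like cells, at 16.1 CPM, and was highest in border macrophage-like cells at 45.8 CPM.

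Among the ephrins, Efnb3 stood out in mature oligodendrocyte-like cells, with 468 CPM at P15 and, at P60, 585, 337 and 565 CPM in cortex, grey and white matter. All 4 values lay above every other class mean, the next being 90.7 CPM in interneuron-like cells. Efna5 (96.3 CPM) and Efna3 (69.0 CPM) were highest in excitatory neuron-like cells, Efnb1 (64.0 CPM) and Efnb2 (56.5 CPM) in neuroblast-like cells, and Efna1 in endothelial-like cells (68.3 CPM). Efna2 (38.7 CPM) and Efna4 (17.3 CPM) were highest in excitatory intermediate precursor-like cells, and Efna2 was close to that level in OPC-like cells at 37.8 CPM.

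Of the 14 Eph receptors, 9 had their highest mean in a neuronal or neuronal precursor class. Epha4, which binds ephrins of both the A and the B class, averaged 329 CPM in excitatory neuron-like cells, where it stood at 124 CPM in P2 cortex, 79.2 in P7 SVZ, 620 in P15 cortex and 492 in P60 cortex. The P15 and P60 values were several times the P2 and P7 values, but the cells compared lay in different clusters. Those of P2 were 78% in cluster 3 and 21.3% in cluster 8, those of P7 SVZ 98.8% in cluster 23, and those of P15 and P60 100% in cluster 42, so that age and neuron cluster cannot be told apart. Epha5 was highest in excitatory intermediate precursor-like cells (244 CPM) and led the family in OPC-like cells, at 90.4 to 210 CPM with a median of 140 CPM over 7 libraries. Ephb1 led in mature oligodendrocyte-like (150 CPM) and COP-like cells (121 CPM). Striatal neuron-like cells held the highest means of Epha7 (147 CPM) and Epha8 (41.6 CPM), excitatory intermediate precursor-like cells that of Epha3 (103 CPM), and excitatory neuron-like cells those of Ephb6 (76.3 CPM), Ephb2 (30.3 CPM) and Epha10 (17.4 CPM). Ephb3 was highest in astrocyte-like cells (43.9 CPM) and Ephb4, a venous receptor, in endothelial-like cells (57.2 CPM).

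Among the named classes Epha2 had its highest mean, 14.5 CPM, in microglia-like cells, and this rested on 1 library. It stood at 68.1 CPM (536 UMIs) in P60 grey matter and at 0 to 8.41 CPM in the other 6 libraries. On few counts, Epha2 was also highest in grey matter among endothelial-like (29.8 CPM, 7 UMIs), border macrophage-like (8.26 CPM, 3 UMIs) and OPC-like sums (6.62 CPM, 4 UMIs). In astrocyte-like cells of grey matter Epha2 was 0, which allows up to 8.67 CPM (3 counts). In grey matter, 92.7% of microglia-like cells fell in a cluster of their own, while no other library had most of its microglia-like cells there. The part of that cluster in the Epha2 level was not tested.

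Slits were low throughout. Slit2 led the family in most classes, with its highest mean in excitatory neuron-like cells (27.4 CPM) and 25.2 CPM in COP-like cells. Slit3 was highest in mural-like cells (34.8 CPM), where it ran from 0 to 93.7 CPM over 4 libraries, and Slit1 in neuroblast-like cells (16.3 CPM). Their receptor Robo2 averaged 203 CPM in neuroblast-like cells, from 121 to 367 CPM with a median of 179 CPM over 6 libraries, and 202 CPM in striatal neuron-like cells. Robo1 led in OPC-like cells at 30.7 CPM and was highest in excitatory intermediate precursor-like cells at 73.4 CPM. Robo4 was endothelial-like, at 68 to 141 CPM over 4 libraries against a next highest class mean of 5.17 CPM. Robo3, known from commissural neurons, reached 18.6 CPM in excitatory neuron-like cells, where it was 1.28 and 1.93 CPM in P2 cortex and P7 SVZ and 45.6 and 25.4 CPM in P15 and P60 cortex. As for Epha4, the younger and the older libraries shared no cluster of these neurons.

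In the netrin system, Ntn1 was highest in OPC-like cells, at 20.2 to 85.4 CPM with a median of 42.2 CPM over 7 libraries. Ntn4, a netrin of basement membranes, was highest in mural-like cells, where it was 133, 100 and 104 CPM in P15 cortex, P60 cortex and P60 white matter but 0 in the 20 mural-like cells of P7 SVZ, which allows up to 16.9 CPM (3 counts, counting error only). Each Unc5 receptor had its own class. Unc5c was highest in OPC-like cells (55.1 CPM), Unc5b in mature oligodendrocyte-like cells (182 CPM) and Unc5d in excitatory intermediate precursor-like cells (289 CPM). Unc5a was highest in excitatory neuron-like cells (35.1 CPM) and Dcc in excitatory intermediate precursor-like cells (38.6 CPM). Unc5b stood at 183 CPM at P15 and at 184, 181 and 179 CPM in cortex, grey and white matter at P60 in the mature oligodendrocyte-like sums, a narrow spread of 2.13 CPM (SD).

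Along the oligodendrocyte lineage, the step from OPC-like to COP-like cells replaced part of the receptor and ligand set. The COP-like class pooled clusters 22, 26, 32 and 34, all with Enpp6 raised. Bmp4 was among the leading genes of clusters 22, 26 and 34. Cluster 32 had Mag, a mature oligodendrocyte marker, among its own, and Bmp4 and Neu4 were not among its raised markers. The class need not be of committed precursors alone, and the part of each cluster was not tested. In all 6 libraries with both classes, Sema4d, Plxnb3, Ephb1, Sema6a, Sema5a and Sema4c were higher in COP-like cells. Sema4d averaged 11.5 CPM in OPC-like and 369 CPM in COP-like cells, a 32.1-fold ratio. Plxnb3 went from 9.42 to 156 CPM, Ephb1 from 21.5 to 121 CPM, and Sema5a from 102 to 272 CPM. In the same 6 libraries Epha5, Ntn1, Ephb3, Robo1 and Nrp2 were higher in OPC-like cells. Epha5 averaged 146 CPM in OPC-like and 17.3 CPM in COP-like cells, and Ntn1 44.2 and 10.4 CPM.

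The next step, from COP-like to mature oligodendrocyte-like cells, could be read in 3 libraries. Efnb3 averaged 71.0 CPM in COP-like and 540 CPM in mature cells, Unc5b 27 and 182 CPM, and Efna1 2.71 and 27.7 CPM, each higher in mature cells in 3 of 3. Sema5a (298 against 32.6 CPM), Sema3d (107 against 15.2 CPM), Sema4a (76.5 against 3.86 CPM), Slit2 (36.8 against 3.62 CPM) and Plxnb3 (141 against 45.6 CPM) were higher in COP-like cells in 3 of 3. Sema4d and Ephb1 were thus high in both later stages, Plxnb3 and Sema5a peaked at the COP-like stage, and Efnb3 and Unc5b at the mature one. These class contrasts are descriptions, with no test.

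OPC-like and astrocyte-like cells, which shared all 7 libraries, differed in ligands and receptors alike. Sema3d averaged 61.7 CPM in OPC-like and 0.440 CPM in astrocyte-like cells, Sema5a 100 and 2.67 CPM, Ntn1 45.7 and 2.92 CPM, and Unc5c 55.1 and 8.73 CPM, each higher in OPC-like cells in 7 of 7 libraries. Sema4a (2.01 against 62.0 CPM), Sema4b (12.3 against 91.5 CPM) and Plxnb1 (26.5 against 132 CPM) were higher in astrocyte-like cells in 7 of 7.

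In the neuronal lineages, Robo2 averaged 10.8 CPM in dividing inhibitory precursor-like and 220 CPM in neuroblast-like cells, and Sema6c 2.99 and 44.7 CPM, both higher in neuroblast-like cells in 5 of 5 libraries. Excitatory intermediate precursor-like cells exceeded excitatory neuron-like cells in 2 of 2 libraries for Sema3c (391 against 13 CPM), Unc5d (318 against 22.1 CPM), Nrp1 (203 against 40.7 CPM) and Dcc (42.6 against 3.87 CPM). Unc5c was the other way round, at 0.387 against 23.3 CPM. In P7 SVZ, 3 counts in the 26 precursor-like cells made 22.5 CPM, near the 28.8 CPM of Unc5c in the neuron-like cells.

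Among immune and vascular cells, Nrp1 averaged 53.4 CPM in microglia-like and 233 CPM in border macrophage-like cells, Plxnd1 2.81 and 49.5 CPM, and Sema4a 4.05 and 68.3 CPM, each higher in border macrophage-like cells in 3 of 3 libraries. Sema4d was higher in microglia-like cells, at 79.6 against 24.1 CPM. Endothelial-like cells had Sema3c (461 CPM), Sema7a (149 CPM), Sema3g and Robo4 (85.3 and 85.0 CPM in the shared libraries), and mural-like cells had Ntn4 (112 against 17.7 CPM) and Sema5a (89.0 against 2.54 CPM).

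A comparison of stages asked which of the 68 genes differed between the early and the adult libraries within 1 class. In OPC-like cells, 36 of the 68 had enough counts to be tested, and 2 were higher and 1 lower in adult cells. Over all 9760 genes tested, 3.0% were higher and 3.50% lower, so these counts lie near the background. The median log2 fold change was 0.27 for the 36 genes and 0.01 for all genes tested. On the plain CPM scale the adult OPC-like sums were shifted by 0.21 (log2, median over genes) relative to the fit, and less in the other classes (-0.04 to -0.00).

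Epha4 fell in adult OPC-like cells. It stood at 33.5 CPM in P2 cortex, 25.8 in P7 cortex, 67.7 in P7 SVZ and 30.4 in P15 cortex, and at 7.41, 11.6 and 5.51 CPM in cortex, grey and white matter at P60. The groups did not overlap, and the adult values rested on 3, 7 and 2 UMIs. The means were 39.3 ± 19.1 CPM (SD, n = 4) and 8.17 ± 3.11 CPM (SD, n = 3), with a log2 fold change of -2.40 ± 0.51 (SE; edgeR's quasi-likelihood test, Benjamini-Hochberg adjusted p = 0.0190).

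Sema3d, a secreted semaphorin, rose in adult OPC-like cells. It stood at 11.5, 25.4, 39.1 and 52.7 CPM in P2 cortex, P7 cortex, P7 SVZ and P15 cortex, and at 96.3, 124 and 82.6 CPM in cortex, grey and white matter at P60. All adult values lay above all early ones. The means were 32.2 ± 17.7 CPM (SD, n = 4) and 101 ± 21.2 CPM (SD, n = 3), with a log2 fold change of 1.45 ± 0.36 (SE; edgeR's quasi-likelihood test, adjusted p = 0.0337). In the 4 cortex libraries the level was higher at each later age. The exact 95% Poisson intervals, which cover counting error only, were 5.93 to 20, 19.5 to 32.5, 44.7 to 61.6 and 68.5 to 132 CPM, and only those of P2 and P7 overlapped.

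Sema4b, a transmembrane semaphorin, also rose. Its early levels were 6.69, 6.05, 3.73 and 7.09 CPM and its adult levels 17.3, 23.2 and 22.0 CPM, in the same library order. The groups did not overlap, and the adult values rested on 7, 14 and 8 UMIs. The means were 5.89 ± 1.5 CPM (SD, n = 4) and 20.8 ± 3.13 CPM (SD, n = 3), with a log2 fold change of 1.68 ± 0.40 (SE; edgeR's quasi-likelihood test, adjusted p = 0.0277).

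**Figure D2:**
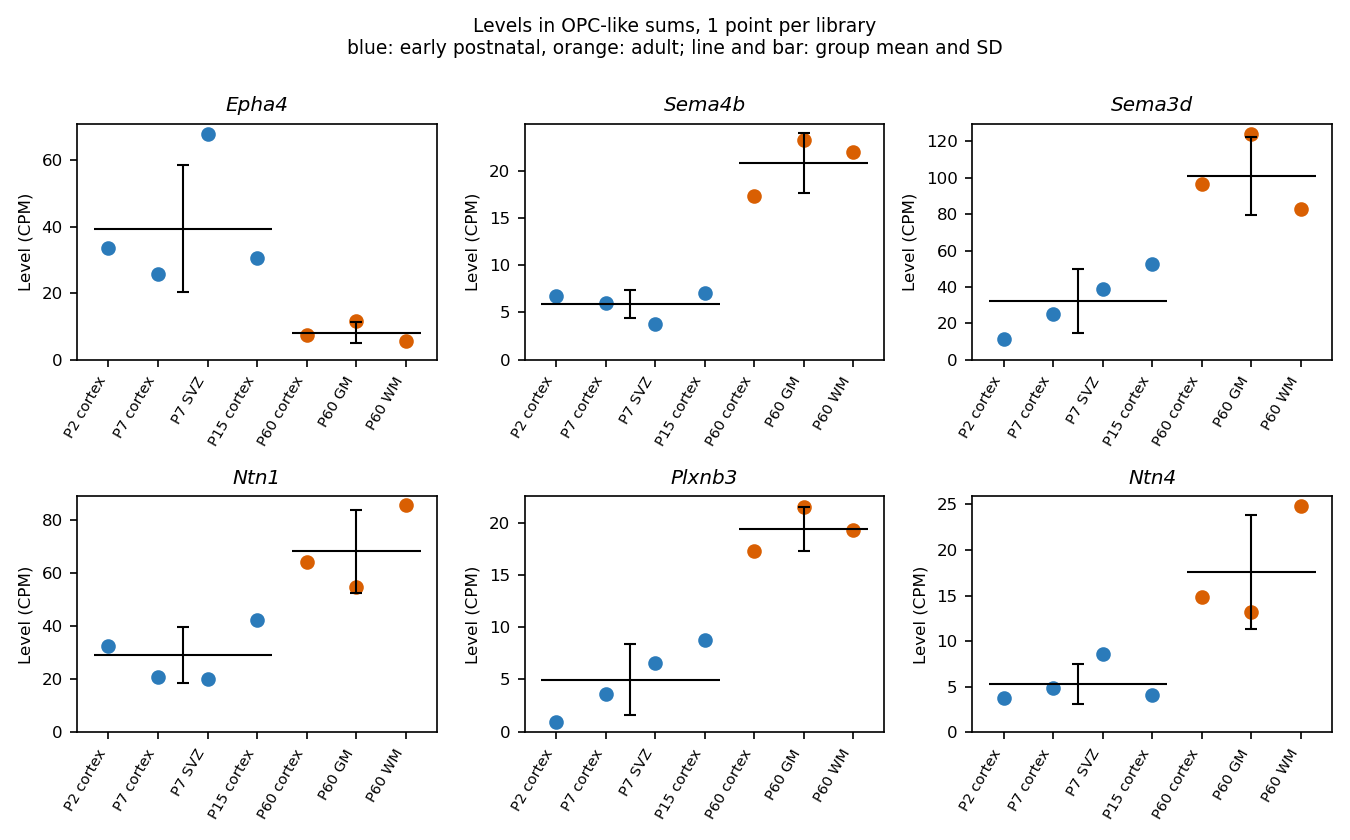
Levels (CPM, linear axes from 0) of 6 genes in the OPC-like sum of each library, 1 point per library, with blue for early and orange for adult libraries (GM, grey matter, WM, white matter), a line at the group mean and a bar for the SD (n = 4 and 3). The adult points of Epha4 (5.51 to 11.6 CPM) lie below the early ones and those of Sema3d (82.6 to 124 CPM) and Sema4b (17.3 to 23.2 CPM) above. Ntn1, Plxnb3 and Ntn4 were not called.

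The calls depended on single libraries. Leaving out P60 cortex, P60 grey matter or P60 white matter ended all 3 calls, with adjusted p of 0.0699 to 0.0899 for Epha4. Without P2 cortex or P7 cortex, Epha4 alone kept its call, and without P7 SVZ or P15 cortex Sema4b and Sema3d were called as well. The adult OPC-like sums were smaller (362985 to 604013 UMIs against 1046218 to 4552413), and they held more RNA of other classes. All 12 microglia markers had a higher mean there (summed level 157 to 1386 CPM against 20.1 to 135 CPM), as did 9 of 12 astrocyte markers (810 to 1675 against 405 to 901 CPM) and 11 of 12 mature oligodendrocyte markers (464 to 873 against 204 to 1062 CPM). None of 11 neuroblast markers did (39.5 to 93.7 against 110 to 570 CPM), nor did 9 of 10 excitatory neuron markers (13.8 to 64.6 against 15.3 to 95.3 CPM). Of 10 endothelial markers 5 did (41.3 to 61.3 against 20.1 to 53.3 CPM), with Slco1a4 at 0. Sema3d itself stood at 0 to 0.897 CPM in microglia-like cells and averaged 0.440 CPM in astrocyte-like, 14.8 CPM in mature oligodendrocyte-like and 77.8 CPM in COP-like cells. Sema4b stood at 56.8, 19.3 and 25.1 CPM in microglia-like and at 143, 142 and 108 CPM in astrocyte-like cells of P60 cortex, grey matter and white matter, and Epha4 averaged 85.0 CPM in neuroblast-like cells. The part of other cells' RNA in the results for Sema3d, Sema4b and Epha4 was not tested. Of the OPC-like cells of P7 SVZ, 85.2% lay in a cluster apart from the one that held 79.5 to 99.2% in every other library.

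The start regions of these 3 genes are shown because they were the only ones of the 68 called in a stage comparison. Each is 220 bases of mouse RefSeq promoter sequence (build GRCm38.p6) that ends 31 bases before the RefSeq transcript start, 5′ to 3′ on the gene's strand. The gene positions are those of GENCODE, whose starts differ from the RefSeq starts by 219 bases for Sema3d, 29 for Sema4b and 0 for Epha4. Capitals mark the Sox-type motif ACAAAG on either strand (CTTTGT on the other). Epha4 lies on chr1:77367185-77515088 (minus strand) and its promoter window at chr1:77515119-77515338. Sema3d lies on chr5:12383385-12588948 (plus strand) with the window at chr5:12382916-12383135. Sema4b lies on chr7:80186841-80226527 (plus strand) with the window at chr7:80186620-80186839.
Epha4: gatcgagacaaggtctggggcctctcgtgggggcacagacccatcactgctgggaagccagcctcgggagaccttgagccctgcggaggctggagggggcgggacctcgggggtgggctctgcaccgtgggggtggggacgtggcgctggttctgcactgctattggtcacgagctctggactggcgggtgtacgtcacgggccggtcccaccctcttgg
Sema3d: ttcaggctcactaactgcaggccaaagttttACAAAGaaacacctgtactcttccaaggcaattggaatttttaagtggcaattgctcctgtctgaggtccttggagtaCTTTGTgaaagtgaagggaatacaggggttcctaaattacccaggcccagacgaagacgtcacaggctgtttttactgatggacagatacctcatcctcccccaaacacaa
Sema4b: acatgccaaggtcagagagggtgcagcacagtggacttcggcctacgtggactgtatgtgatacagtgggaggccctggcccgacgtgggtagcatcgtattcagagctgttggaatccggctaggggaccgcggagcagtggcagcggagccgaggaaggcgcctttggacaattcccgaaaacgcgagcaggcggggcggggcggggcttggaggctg
The Sema3d window held 2 matches to ACAAAG and the others 0. The motif occurred in 14.8% of 32851 RefSeq promoters over a window of the same length. The E-box CAGCTG (in 11.4% of promoters) and CATATG (in 3.19%), both searched on either strand, were found in none of the 3. Of the 68 genes, 58 had a promoter entry. A match is a description of these letters and not a binding site.

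Among the 33 OPC-like genes tested and not called, a ligand and a receptor came nearest to the threshold. Ntn1 stood at 32.5, 21.0, 20.2 and 42.2 CPM across the early sums and reached 64.2, 54.6 and 85.4 CPM in the adult ones (log2 fold change 1.05 ± 0.31, SE, edgeR adjusted p = 0.0602). Plxnb3 stood at 0.956, 3.63, 6.59 and 8.78 CPM and at 17.3, 21.5 and 19.3 CPM (1.64 ± 0.50, adjusted p = 0.0686). Neither overlapped between the groups. At an unadjusted p under 0.05, 11 of the 36 genes passed, 9 higher and 2 lower, against 22.1% of all genes tested in either direction. That share was not split by direction.

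Genes that carry guidance signals into the cell were taken from a separate list of 58 effectors and co-receptors, which also held the ligand Draxin. Of these 58, 45 were tested in OPC-like cells. In adult cells 5 were lower and 0 higher (edgeR), against 3.5% lower and 3.0% higher among all genes tested. Dpysl3, which encodes a collapsin response mediator protein downstream of semaphorins, fell from 497 ± 137 CPM (SD, n = 4) to 181 ± 25.7 CPM (SD, n = 3), with a log2 fold change of -1.67 and an edgeR adjusted p of 0.00909. Draxin, a secreted ligand of Dcc, fell from 32.7 ± 19.8 to 1.84 ± 3.18 CPM (edgeR adjusted p = 0.0281). Its adult mean lay below the level of 3 counts in the adult sums, 4.97 to 8.26 CPM. Chn2, a Rac-regulating chimaerin, fell from 27.6 ± 5.52 to 11.9 ± 2.63 CPM (edgeR adjusted p = 0.0353), and Gap43, a growth cone protein, from 482 ± 106 to 201 ± 121 CPM (0.0364). In early neuroblast-like cells, whose markers were lower in the adult OPC-like sums, the means were 597 CPM for Dpysl3, 63.6 CPM for Draxin, 23.7 CPM for Chn2 and 189 CPM for Gap43. The part of such RNA in these falls was not tested.

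In astrocyte-like cells, 36 of the 68 genes were tested and 0 were called in either direction, where 0.0266% of all 11266 genes were higher and 0.0178% lower (edgeR). At an unadjusted p under 0.05, 3 were higher and 10 lower, against 26.8% of all genes in either direction, a share that was not split by direction. Efnb3 stood at 24.9, 16.1, 29.7 and 10.2 CPM in P2 cortex, P7 cortex, P7 SVZ and P15 cortex and at 3.93, 0 and 3.07 CPM in the P60 libraries, without overlap (log2 fold change -2.63 ± 0.62, SE, adjusted p = 0.0778). Epha4 stood at 139, 101, 118 and 30.7 CPM and at 22.5, 34.7 and 30.7 CPM (-1.76 ± 0.50, adjusted p = 0.0882). Its P15 value lay within the adult range, while the earlier ages lay well above it.

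Sema6a had the same order, at 99.1, 133, 112 and 34.8 CPM and at 20.7, 20.2 and 46.1 CPM (-1.78 ± 0.49, adjusted p = 0.0882). Plxnb1, the main astrocyte-like plexin, stood at 64.9, 81.8, 91.7 and 109 CPM and at 131, 277 and 169 CPM (1.15 ± 0.33, adjusted p = 0.0900), with no overlap. The count of calls turned on P15 cortex: without it, 4 of the genes were higher and 10 lower, and with DESeq2 in place of edgeR 3 and 7. Most astrocyte-like cells fell in different clusters at P2 (cluster 1, 63.3%), P15 (cluster 30, 81.4%) and P60 (cluster 31, 70.9 to 93.8%), and 98% of those of P7 SVZ in cluster 37. Clusters 1 and 37 had 0 astrocyte markers among their 10 leading genes, and clusters 30 and 31 had 2 each. The part of these clusters in the stage values was not tested. All 12 microglia markers had a higher mean in the adult astrocyte-like sums (203 to 1161 against 71.1 to 158 CPM), and their part was not tested. Of 48 effectors tested 0 were called, the lowest adjusted p being that of Rnd1 (0.0663).

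**Figure D3:**
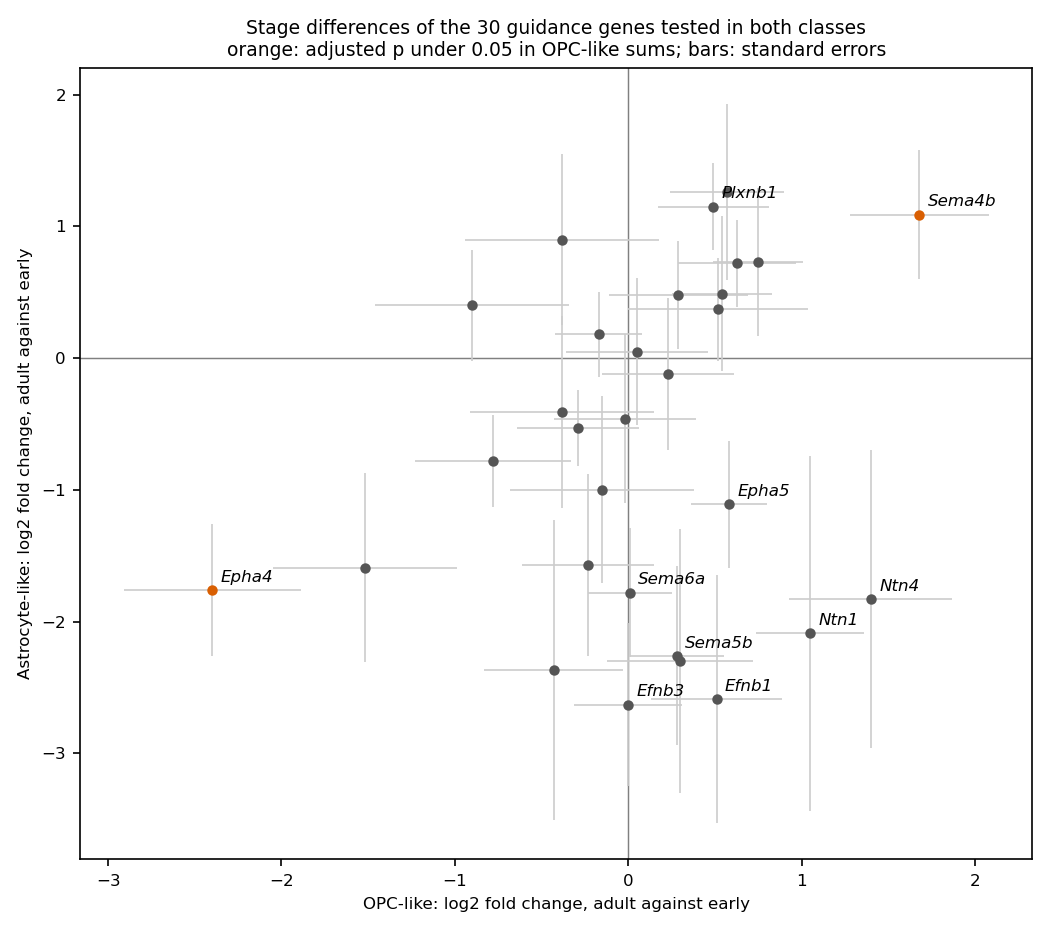
Log2 fold change of adult against early libraries in OPC-like sums (x axis) and in astrocyte-like sums (y axis) for the 30 genes tested in both, from edgeR, with bars for the SE and orange for adjusted p under 0.05 in OPC-like sums. Epha4 (-2.40 and -1.76) lies low on both axes, and Efnb3 (-2.63 in astrocyte-like cells) low on the y axis.

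Whether the stage change differed between OPC-like and astrocyte-like cells was tested directly, with an interaction term and the library as a block. None of 49 genes passed, where 0.531% of all 12622 genes had a higher and 0.158% a lower change in OPC-like cells (edgeR). At an unadjusted p under 0.05, 10 did, all with a more positive change in OPC-like cells, against 18.6% of all genes in either direction. That share was not split by direction, so the shared direction of the 10 has no background. The lowest adjusted p was that of Sema5b, 0.0716, with a difference in log2 fold change of 2.40 ± 0.57 (SE). In OPC-like sums Sema5b ran from 37.6 to 58.5 CPM early and 54.3 to 88.2 CPM in adults, and at 19.8 to 64.9 and 2.89 to 27.6 CPM in the astrocyte-like ones. Efnb3 was next, with 2.69 ± 0.67 and an adjusted p of 0.0772. DESeq2 called 2 genes. Without P15 cortex 8 genes passed in edgeR, and without the filter on low counts 8 did too.

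In microglia-like cells, 0 of 14 genes tested were called, where 0.0105% of all 9558 genes were higher and 0.0418% lower (edgeR). At an unadjusted p under 0.05, 4 passed, against 13.1% of all genes. Nrp1 was 98.2, 94.0, 135 and 38.1 CPM across the early libraries and 22.2, 27.9 and 36.5 CPM across the adult ones, without overlap (log2 fold change -1.57 ± 0.44, SE, adjusted p = 0.186). Plxnb2 stood at 103 to 126 CPM and at 74.2 to 87.9 CPM (-0.50 ± 0.24, adjusted p = 0.410). Both had their lowest early value at P15. Most microglia-like cells of P2 cortex, P7 cortex and P7 SVZ lay in cluster 2 (56% to 87.2%), those of P15 cortex (76%) and P60 white matter (61.9%) in cluster 19, those of P60 cortex in cluster 20 (78.8%) and those of P60 grey matter in cluster 43 (92.7%). The part of these clusters in the values was not tested. DESeq2 called 1 gene lower, and without P15 cortex edgeR called 1 higher and 2 lower. Of 28 effectors tested, only the kinase Fyn was called, at 24.2 to 43.7 CPM in early and 3.56 to 5.66 CPM in adult sums (adjusted p = 0.0487). Of 11 neuroblast markers 1 had a higher mean in the adult microglia-like sums (3.81 to 33.6 against 22 to 674 CPM), and Fyn averaged 116 CPM in early neuroblast-like cells. The part of such RNA was not tested.

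In neuroblast-like cells, which P60 grey matter lacked at the required number, 0 of 31 genes tested were called, against 0% of all 8856 genes higher and 0.0226% lower (edgeR). Of the 31, 2 passed an unadjusted p under 0.05, against 4.83% of all genes. Epha5 stood at 108, 30.4, 106 and 60.9 CPM in the early libraries and at 13.9 and 19.0 CPM in P60 cortex and white matter (log2 fold change -2.15 ± 0.60, SE, adjusted p = 0.939). Its groups did not overlap. Of the neuroblast-like cells of P7 SVZ, 90.8% lay in cluster 33, which held at most 1.92% of those in any other library. DESeq2 called 0, and without the filter on low counts edgeR called 1 gene lower.

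Endothelial-like cells reached 20 cells in only 1 early library, so that no stage test was made. Sema3c was lower there at P15 (280 CPM) than in the 3 adult libraries (403 to 700 CPM), and Nrp1 at 195 CPM lay within the adult range of 102 to 213 CPM. A cluster of 123 cells carried all 10 endothelial markers but was led by haemoglobin genes and stayed unnamed. In it Nrp1 stood at 403 CPM in P7 cortex and 306 CPM in P15 cortex, Robo4 at 142 and 136 CPM, and Sema3c at 22.8 and 65.0 CPM. Efna1 stood at 152 and 133 CPM, Plxnd1 at 104 and 108 CPM, and Epha2 at 35.8 CPM (33 UMIs) and 40.2 CPM (13 UMIs). The values of Nrp1, Efna1, Plxnd1 and Epha2 lay above every mean of a named class. Rankings of classes in the sections above leave this cluster out.

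White and grey matter at P60, and SVZ and cortex at P7, are single libraries, so their differences have no replicate check. Ratios carry exact 95% intervals for counting error only. In OPC-like cells of white against grey matter, 24 genes had at least 10 UMIs on the higher side and 4 differed at least 2-fold, where 19.7% of all genes did. Unc5c, a repulsive netrin receptor, was 99.2 CPM in white and 48.0 CPM in grey matter, a ratio of 2.07 (1.23 to 3.49). Plxnb2 was 2.75 CPM (1 UMI) and 23.2 CPM, 8.41-fold lower in white matter (1.28 to 356). In astrocyte-like cells 2 of 13 genes differed 2-fold, where 22.3% of all genes did, and Efna2 stood at 58.4 and 17.3 CPM (3.37, 1.29 to 10.3).

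Between P7 SVZ and P7 cortex, strain and region changed together. The share of mitochondrial RNA differed as well. At a 5% mitochondrial limit, 33 of 549 OPC-like cells of SVZ remained, and 277 of 317 of cortex. For astrocyte-like cells these were 302 of 541 and 1606 of 1942. The part of this in the ratios was not tested. In OPC-like cells 11 of 49 genes differed at least 2-fold, where 19.8% of all genes did in either direction. All 11 were higher in SVZ, but the share over all genes was not split by direction. Epha4 had the most counts, at 67.7 CPM in SVZ and 25.8 CPM in cortex (ratio 2.62, 2.0 to 3.49). Plxnd1 (7.62, 1.16 to 322, on 14 and 1 UMIs), Epha7 (3.09, 1.28 to 8.99), Robo2 (2.54, 1.35 to 5.21), Sema4g (2.45, 1.5 to 4.20) and Dcc (2.15, 1.29 to 3.77) had intervals that left out 1.

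Astrocyte-like cells differed more widely, with 17 of 51 genes at least 2-fold apart, where 26.4% of all genes were in either direction. Of the 17, 11 were higher in SVZ, and 16 had intervals that left out 1. Of the 541 astrocyte-like cells of SVZ, 530 lay in cluster 37, which held 1 of the 1942 of P7 cortex. That cluster had 9 astrocyte markers raised, with 0 among its 10 leading genes. Cluster, strain and region cannot be told apart here. Ntn4 was 43.8 CPM in SVZ and 5.98 CPM in cortex (7.33, 5.55 to 9.75), Epha3 13.6 and 1.5 CPM (9.11, 5.29 to 16.3), Plxnd1 11.0 and 1.97 CPM (5.57, 3.31 to 9.56) and Sema5a 6.95 and 1.26 CPM (5.52, 2.85 to 11.0). Sema3e had the highest ratio on few counts, with 14 and 3 UMIs (15.8, 4.42 to 86.0). Nrp1 lay the other way, at 4.54 CPM in SVZ and 31.2 CPM in cortex, 6.86-fold lower (4.23 to 11.9).

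**Figure D4:**
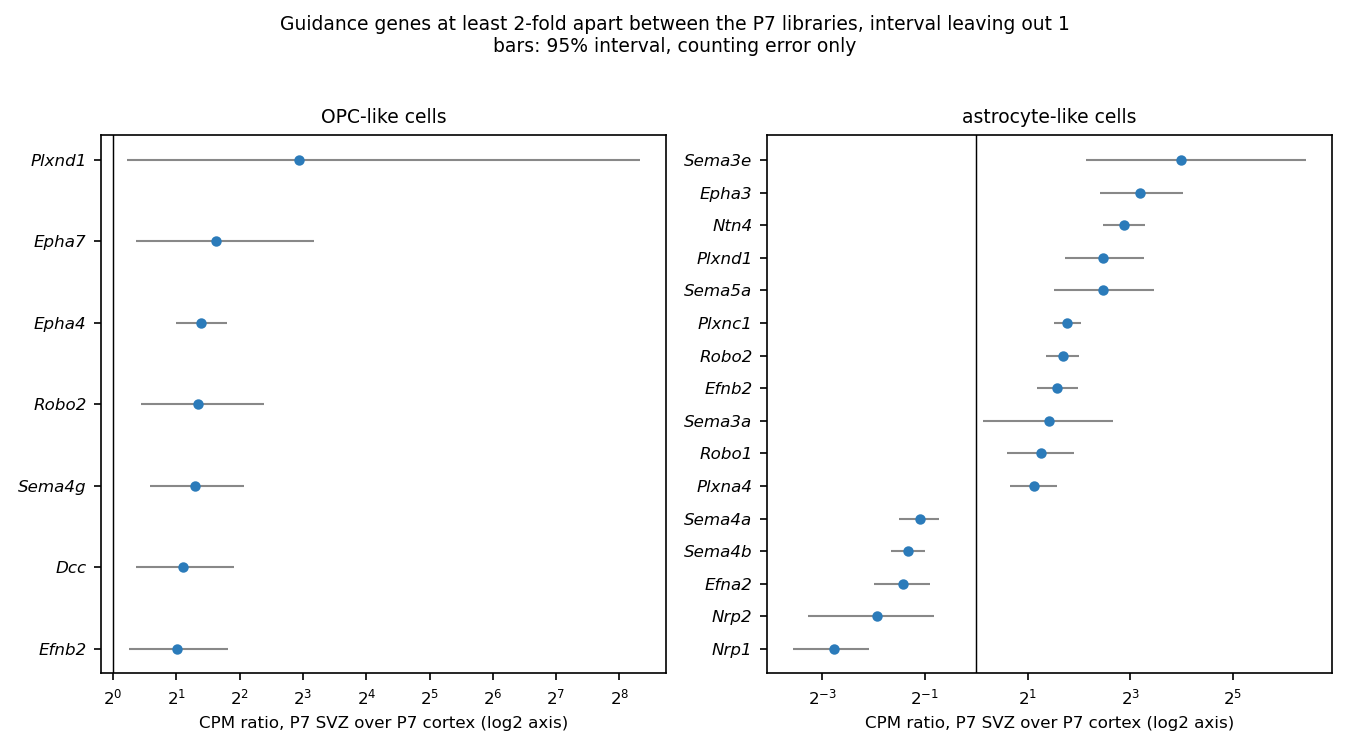
Ratio of the CPM in P7 SVZ to that in P7 cortex (log2 axis), 1 point per gene with its exact 95% interval for counting error, for the 7 OPC-like and 16 astrocyte-like genes at least 2-fold apart whose interval leaves out 1. All 7 OPC-like points lie right of 1, while Nrp1 and 4 other astrocyte-like genes lie left of it.

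At P2 the neurons of 1 library could be set apart by cluster. The clusters were upper-layer excitatory neurons (1229 cells), layer 5 and 6 excitatory neurons (335), excitatory intermediate precursors (224), interneurons with Sst, Npy and Lhx6 (254), interneurons with Adarb2 and Vip (203) and striatal neurons (52), all by marker RNA. Of 36 genes with at least 30 UMIs in their highest cluster, 22 spanned at least 4-fold between clusters. Of all 8028 genes with as many UMIs, 24.9% did so. These values come from 1 library and carry no test.

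Intermediate precursors held the most high points. Unc5d stood at 269 CPM there, at 37.5 CPM in upper-layer and 6.88 CPM in deep-layer neurons, and at 0 in striatal neurons. With the striatal level set at the floor of 3 counts, Unc5d was at least 48.5-fold higher in the precursors. Sema3c was 348 CPM in the precursors and 122 CPM in Adarb2 interneurons, against 1.85 to 20 CPM in the other 4 clusters. Nrp1 was 211 CPM in the precursors and 3.69 to 71.7 CPM elsewhere. Sema3c and its co-receptor Nrp1 thus shared their highest cluster. Epha5 (323 CPM), Epha3 (107 CPM), Efnb1 (87.5 CPM), Sema5a (66.6 CPM), Unc5a (32.5 CPM), Sema4c (29.4 CPM) and Efna4 (23.2 CPM) were also highest there.

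The other clusters led in other genes. Upper-layer neurons had the highest Sema7a (79.2 CPM), Plxna1 (39.2 CPM) and Unc5c (19.4 CPM, against 0.774 CPM on 1 UMI in the precursors, ratio 25.1, 4.48 to 995). Layer 5 and 6 neurons had the highest Efna5 (74.1 CPM, 10.3-fold over Adarb2 interneurons, 5.82 to 20.2) and Ephb6 (49.9 CPM). The 2 interneuron clusters differed from each other too: the Sst cluster had the highest Sema6c (85.0 CPM), Ephb2 (46.9 CPM) and Sema3a (36.0 CPM), and the Adarb2 cluster the highest Sema6a (105 CPM, 15-fold over precursors, 7.74 to 33.4). Striatal neurons had the highest Epha4 (235 CPM), Epha7 (179 CPM) and Ephb1 (105 CPM, 17.6-fold over Adarb2 interneurons, 8.90 to 38.6). Epha4 in the precursors (218 CPM, 193 to 245) did not differ from the striatal level (196 to 279) beyond counting error.

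**Figure D5:**
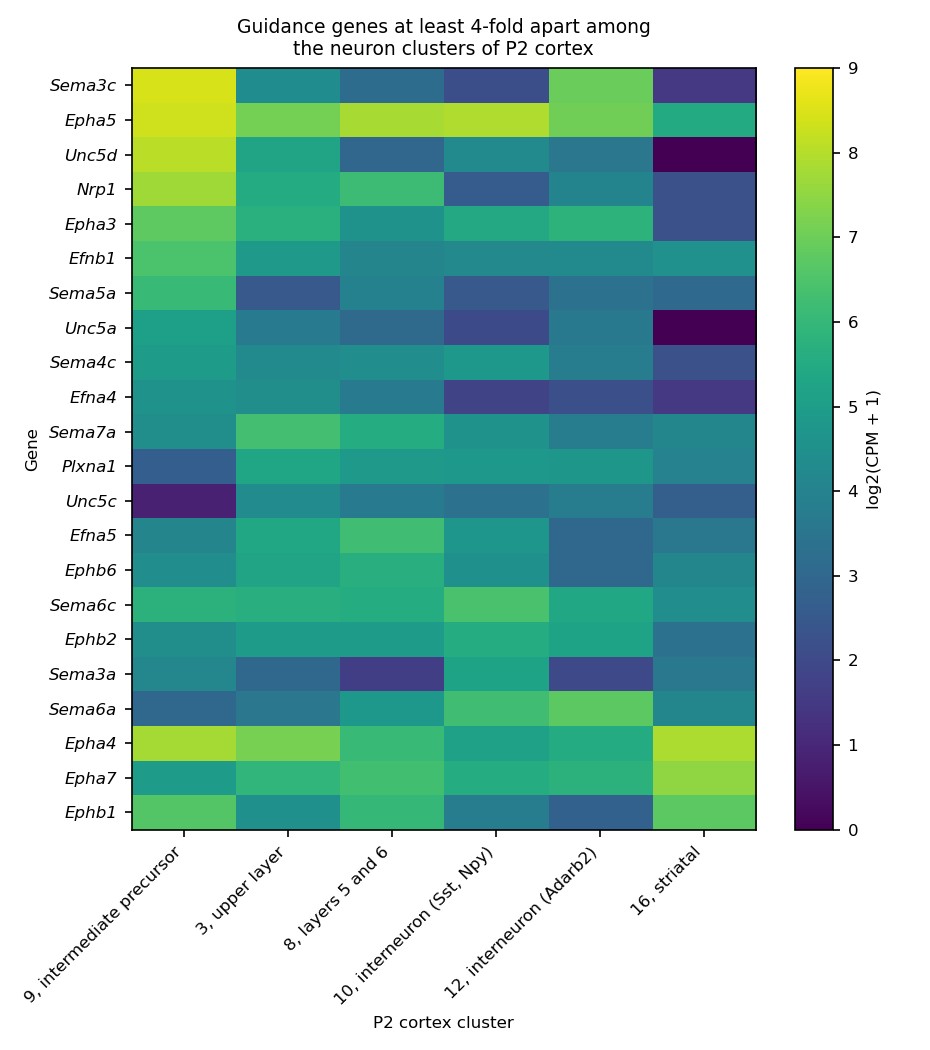
Levels, as log2(CPM + 1) on a colour scale, of the 22 genes that span at least 4-fold between the 6 neuronal clusters of P2 cortex, with a row per gene and a column per cluster. The intermediate precursor column holds the highest values of Unc5d (269 CPM), Sema3c (348 CPM) and Nrp1 (211 CPM).

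Ligand genes were paired with receptor genes of the same system, whether or not their proteins are known to bind, which gave 338 pairs. The 3 with the most alike patterns were Sema3d with Plxnb3 (Pearson r = 0.81), Efna2 with Epha5 (0.77) and Sema4d with Plxnb3 (0.76). A pair here is therefore not a statement of binding. The measure ran over log2(CPM + 1) of 65 class sums from 15 classes. Sums of 1 library share that library, and sums of 1 class share its cells, so the values are descriptions.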

How the data were processed

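The authors deposited raw UMI counts for every gene and barcode. Per the file headers these came from Cell Ranger 3.0.2. The submitters' processing notes name the build as mm10. Neither the annotation release nor strand use is given in the sources used here, so reads of overlapping or antisense genes may not be told apart. Filters removed 1304 barcodes with under 500 genes, 3441 with a mitochondrial share above 10%, and 305 doublets called by scrublet (scanpy 1.11.5, with 0.06 set as the rate), which kept 20697 of 25747. Cells were clustered on 30 principal components of 2000 variable genes without the 6 guidance genes among them (Leiden, 15 neighbours, resolution 1.5, seed 1). This gave 46 clusters, of which 4 (549 cells) stayed unnamed.

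A name needed 3 markers raised at least 2-fold in at least 10% of cells and no more markers of another class among the 10 leading genes. The division genes Top2a, Mki67 and Birc5 did not count. Shallow clusters without a marker of their own among those genes stayed unnamed. This scoring rule was chosen after the data were seen, and classes are written "-like" because they rest on marker RNA. Counts were summed per class and library with at least 20 cells.

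Stages were compared with edgeR 4.0.16 in R 4.3.3 (TMM scaling, filterByExpr, quasi-likelihood test, Benjamini-Hochberg adjustment over all genes tested, threshold 0.05). The scripts were tested on simulated data. Comparisons of 1 library with another, of classes and of P2 clusters were not tested. The OPC-like sums held 362985 to 4552413 UMIs, so 3 counts, the floor used for a level of 0, correspond to 0.659 to 8.26 CPM. Alternatives were DESeq2 1.42.0, its size factors in edgeR, no filter, a 5% mitochondrial limit, resolution 1.0, clustering with the guidance genes, 20 UMIs as the minimum in library pairs, and each library left out.

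Named with tests were all guidance genes past the threshold and those nearest to it. Named with levels were the leading genes by family and class, the up to 6 most different per library pair whose interval left out 1, and those at least 4-fold apart with 30 UMIs in P2 clusters. The genes and lists were chosen with earlier results of these data known. Plxnb2 in microglia-like cells, Epha2 in microglia-like cells and the order of Epha4 and Robo3 by age in neurons were picked after their values were seen.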

Additional observations from a re-analysis of the deposited data

How the results depend on the processing

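No paired analysis was possible because the labels give no replicate numbers that link early and adult libraries, although OPC-like and astrocyte-like sums were compared within libraries. In OPC-like cells, the count of guidance genes higher in adult libraries (2) was 0 at a 5% mitochondrial limit and 0 to 4 when a library was left out, and the count lower (1) was 0 to 1. In astrocyte-like cells (0 higher, 0 lower), DESeq2 called 3 higher and 7 lower and the fit without the filter on low counts 3 lower. Leaving out a library gave 0 to 4 higher and 0 to 10 lower there, and only P15 cortex moved either count. In microglia-like cells (0 and 0), DESeq2 called 1 lower, and leaving out a library gave 0 to 1 higher and 0 to 2 lower. In neuroblast-like cells, the fit without the filter called 1 lower. For the difference in stage change between OPC-like and astrocyte-like cells (0 higher), no filter gave 8, DESeq2 2, resolution 1.0 2, clustering with the guidance genes 1, and leaving out a library 0 to 8. With at least 20 UMIs, the genes 2-fold apart fell from 4 to 1 (white against grey matter, OPC-like), from 2 to 0 (astrocyte-like) and from 11 to 7 (SVZ against cortex, OPC-like), where fewer genes were eligible. The last was 6 at the 5% mitochondrial limit, which left 33 OPC-like cells in P7 SVZ. Except where the alternative itself removes genes or samples, the cause was not tested. No fold change of a named gene reversed under the alternatives run. The counts of genes at 10 CPM stayed within 1.5 times of the main count under each alternative run for them. Among the stage sums the 3-count floor was as high as 13.9 CPM (neuroblast-like, P60 cortex), and adult Epha4 in OPC-like cells rested on 2 to 7 UMIs.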
